A study of Mus musculus with 8 samples.

Results

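The S100 calcium-binding genes S100a1, S100a4, S100a6, S100a8, S100a9, S100a10, S100a11, S100a13, S100a16 and S100b were followed through the cells of mouse brain tumors driven by the ZFTA-RELA fusion. They were taken by symbol and are 10 of the 33696 genes in the expression matrices, which list 18 symbols beginning with S100 in all. Their levels were read in 7 cell types, each gated on the unique molecular identifiers (UMIs, counts of captured RNA molecules) of other genes: CD8 T cells, CD4 T cells, natural killer (NK) cells, microglia, monocytes, neutrophils and neural cells. No S100 gene was used to choose a cell.

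The mice carried NestinCreERT2;Fus1;RFPTdT, in which a Cre driven by the Nestin promoter of neural progenitors recombines a ZFTA-RELA fusion allele that also carries luciferase, so that ependymoma arises from the animals' own radial glia. They were randomized at 3 weeks of age to 1 intrathecal injection of mavrilimumab at 5 mg per kg (an antibody that blocks the GM-CSF receptor through its alpha chain) or of control IgG (vehicle IgG). Brain cells were collected at 6 to 8 weeks, enriched on Percoll, stained for CD45, Ter119 and a viability dye, and sorted for CD45+ cells outside the vessels, so the neural gate, defined without Ptprc (the CD45 gene), holds cells that the sort was meant to leave out. The 4 expression libraries, 2 per group, were made with a droplet chemistry that reads the 5′ ends of transcripts. Both groups carried the fusion, so no tumor-free brain was compared. The paper describes the sequenced tumors of both groups as taken at recurrence. Tumors of several mice were pooled, and the number in each library is not given in the labels. Treatment p-values below measure the spread between libraries of a group, which may be partly technical. In NK cells and monocytes, with 1 vehicle library, that spread comes from the mavrilimumab libraries alone. Contrasts of cell types and states had the library as a block, and their p-values measure how the difference varies between libraries.

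The libraries held 24354457 to 148657643 UMIs and 984 to 26746 cells that passed the filters, with median depths of 3296 to 11759 UMIs per cell. Cells in exactly 1 gate numbered 772 to 18348 per library, and cells in several gates (5 to 328) were left out. Library totals are given below in the order vehicle IgG 1, vehicle IgG 2, mavrilimumab 1 and mavrilimumab 2. Levels are given as CPM, the UMIs of a gene per 1000000 summed UMIs of a library and cell type, and sums of fewer than 20 cells were not tested. Among tested sums, each gate held more of its own 6 check markers than the gates of other cell types, and all 6 were detected. Foreign markers were also present. In vehicle IgG 2 the neural list exceeded the gate's own in CD8 T, CD4 T and neutrophil sums. In CD4 T cells of mavrilimumab 1 the B cell list did. The CD8 T and CD4 T sums of vehicle IgG 1 held 3113 and 2431 CPM of microglia markers, against at most 1141 CPM in those of other libraries. Pairs of libraries shared 0 to 60 cell barcodes, at most 1.02% of the smaller library.

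The labels carry a limit on every direction between treatments. T cell receptor (TCR) files of 3 libraries were used, and that of vehicle IgG 2 was not analysed here. In 3 of 3 files an inner sample name gave the other treatment than the label did. Of 2749 cell barcodes in the TCR file labelled mavrilimumab 1, 2520 lay in the expression library labelled mavrilimumab 2, and 5033 of the 5659 barcodes in the TCR file labelled mavrilimumab 2 lay in the expression library labelled mavrilimumab 1. Directions follow the expression labels and would turn round should all 4 treatment labels be swapped. A second limit is 1 library: in vehicle IgG 2, which holds 15593 of the cells in the neural gate, each immune sum carried 1738 to 7687 CPM of 6 neural markers (Sox2, Sox9, Nes, Ckb, Tubb2b, Map2), against at most 799 CPM in the tested immune sums of the other libraries.

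S100 proteins are small, mostly dimeric proteins with a pair of EF-hand calcium-binding loops. Calcium opens a hydrophobic face through which they hold target proteins, among them annexins, myosin and membrane receptors, and several are secreted as alarm signals. S100a8 and S100a9 pair to form calprotectin, an abundant cytosolic protein of neutrophils that binds zinc and manganese and signals through Tlr4 and Ager (RAGE). S100b is a classical marker of astroglial and ependymal lineages in the brain.

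Of the 10 genes, 9 lie on mouse chromosome 3, between 90511034 and 93564645 in RefSeq's GRCm38.p6 annotation, and S100b lies on chromosome 10 (76253836 to 76261319). The chromosome 3 genes form a tight group of 7, S100a1 to S100a9, within 185 kb, and a distant pair, S100a11 and S100a10. S100a8 (90669071 to 90670034, plus strand) and S100a9 (90692630 to 90695721, minus strand) point towards each other across a gap of 22.6 kb. S100a1 and S100a13 overlap by 98 bases at their starts on opposite strands, which matters for a chemistry that reads 5′ ends, and whether the counting used strand is not given in the sources used here. The labels name the build mm10, but the matrix headers name a later Cell Ranger release, so these coordinates locate the genes and do not describe the counted transcript models.

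The 250 bases before the annotated start are printed for 4 of the genes that differed between neutrophils and other cells: S100a8 and S100a9, which peaked there together, S100a11, which was also highest there, and S100a4, which was nearly absent there. They are from RefSeq (GRCm38.p6), 5′ to 3′ in the direction of the gene, and 9 of the 10 genes had an entry. Capitals mark matches on either strand to 3 motifs: the TATA box letters TATAAA, the core bound by AP-1 factors, TGANTCA, and the core bound by Sp1-like factors, GGGCGG.
S100a8 (chr3:90668821-90669070, plus strand): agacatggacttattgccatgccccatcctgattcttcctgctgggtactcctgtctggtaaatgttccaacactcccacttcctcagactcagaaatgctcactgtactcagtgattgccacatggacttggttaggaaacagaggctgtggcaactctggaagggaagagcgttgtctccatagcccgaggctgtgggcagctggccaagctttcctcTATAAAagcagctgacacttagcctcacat
S100a9 (chr3:90695722-90695971, minus strand): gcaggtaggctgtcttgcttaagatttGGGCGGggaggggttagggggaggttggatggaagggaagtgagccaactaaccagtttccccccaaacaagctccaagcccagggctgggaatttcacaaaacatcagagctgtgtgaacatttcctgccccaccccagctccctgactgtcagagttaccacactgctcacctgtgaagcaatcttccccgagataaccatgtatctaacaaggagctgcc
S100a4 (chr3:90603520-90603769, plus strand): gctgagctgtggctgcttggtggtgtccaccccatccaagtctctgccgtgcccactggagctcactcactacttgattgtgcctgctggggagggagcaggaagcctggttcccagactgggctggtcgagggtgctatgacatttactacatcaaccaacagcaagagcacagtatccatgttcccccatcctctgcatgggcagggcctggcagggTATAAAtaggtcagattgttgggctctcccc
S100a11 (chr3:93520246-93520495, plus strand): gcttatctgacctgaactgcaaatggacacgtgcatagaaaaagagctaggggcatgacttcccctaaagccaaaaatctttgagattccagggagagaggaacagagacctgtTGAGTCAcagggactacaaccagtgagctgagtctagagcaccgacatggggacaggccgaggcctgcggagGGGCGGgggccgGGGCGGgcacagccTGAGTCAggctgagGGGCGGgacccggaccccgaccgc

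TATAAA begins 30 bases before the start of S100a8 and 31 bases before that of S100a4, and it is found in the same window of 12.4% of 32851 promoters. In S100a9 the same letters begin at base 1 of the annotated transcript, outside the stretch shown. S100a11 has no TATAAA but holds TGANTCA 136 and 38 bases before its start and GGGCGG 64, 52 and 24 bases before it. The shares of all promoters with these motifs are 6.75% and 32.7%. These are matches of letters and were not tested as binding sites.

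S100a8 and S100a9 RNA was concentrated in the neutrophil gate, where the pair made up several percent of all UMIs. S100a8 stood at 27720, 20160, 29840 and 24247 CPM and S100a9 at 28513, 22202, 43494 and 25591 CPM in the 4 libraries. All 4 libraries were high for both genes, although only vehicle IgG 2 and mavrilimumab 2 had 20 or more neutrophils (60 and 53; the others had 9 and 13). At a depth thinned to 500 UMIs per cell, 76.8% to 95.4% of neutrophils would show S100a8 and 75.3% to 97.6% would show S100a9. In CD8 T, CD4 T and NK cells, microglia and neural cells the same thinned shares were at most 0.462% and 0.478%, and the summed levels were at most 10.1 and 14.7 CPM.

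The low level outside the neutrophil and monocyte gates was set beside empty droplets (barcodes of 10 to 100 UMIs), which hold free RNA. S100a8 reached 138.0, 10.8, 23.8 and 202 CPM in the empty droplets of the 4 libraries, and S100a9 reached 117, 8.14, 21.9 and 266 CPM. In vehicle IgG 2 these levels rested on 4 and 3 UMIs. T cells, NK cells, microglia and neural cells lay below the level of the empty droplets of their own library. That level does not give the share of free RNA in a sum, and no difference is read from these low values. In mavrilimumab 1, 1 cell of the microglia gate held all 13 S100a8 and all 19 S100a9 UMIs of that sum. Those 2 sums, the highest outside the neutrophil and monocyte gates, thus rest on a single barcode.

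The 2 partners of calprotectin kept a narrow ratio in neutrophils. S100a8 UMIs were 0.972, 0.908, 0.686 and 0.947 times those of S100a9 in the 4 libraries, and 0.758 to 1.33 times in empty droplets. The 1.33 comes from 4 and 3 UMIs in the empty droplets of vehicle IgG 2. Of 53 neutrophils of mavrilimumab 2, 43 held UMIs of both genes, and of 60 neutrophils of vehicle IgG 2, 53 did. The plot of summed S100a8 against S100a9 UMIs shows the neutrophil sums and the empty droplets along the line of equal UMIs. Farthest from it lie the monocytes of vehicle IgG 2, followed by its NK cells, with 7 S100a8 and 0 S100a9 UMIs.

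**Figure D1:**
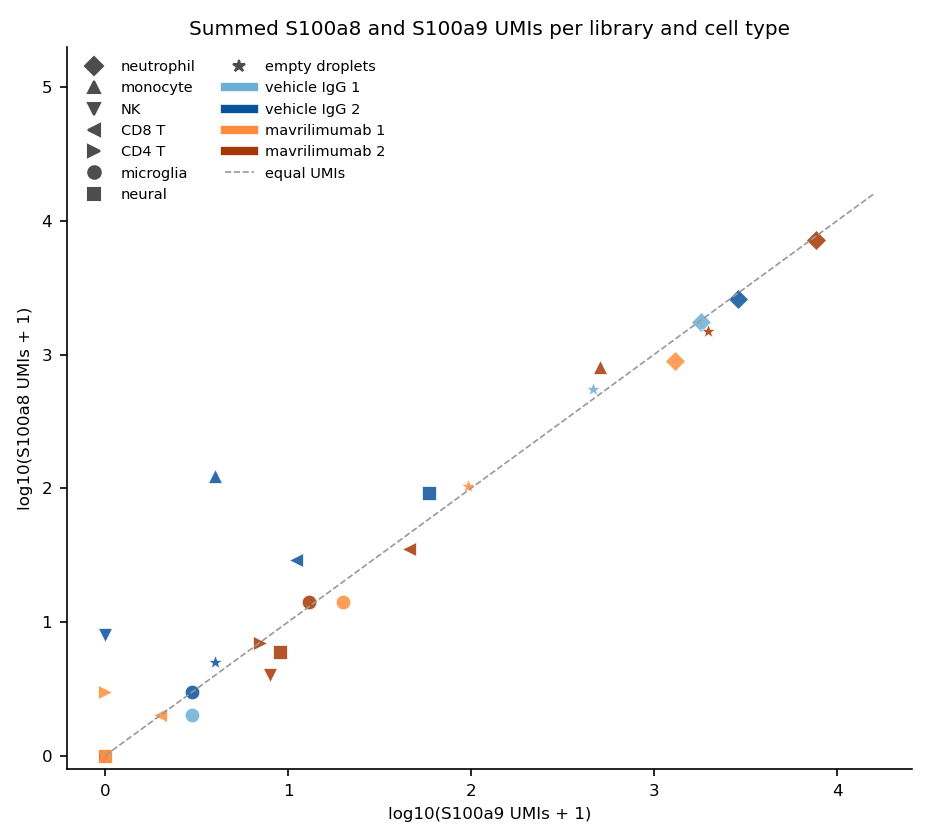
Summed UMIs of S100a8 (vertical axis) and S100a9 (horizontal axis), each as log10(UMIs + 1), with 1 symbol per library (color) and gated cell type or empty droplets (shape) and a dashed line of equal UMIs. The 4 neutrophil sums lie near the line at ratios of 0.686 to 0.972, whereas the monocyte sum of vehicle IgG 2, with 123 S100a8 and 3 S100a9 UMIs, lies far above it.

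Monocytes gave no common picture of the pair. Their S100a8 level was 0, 398, 0 and 639 CPM and their S100a9 level was 0, 9.71, 0 and 405 CPM, the first library holding only 2 such cells. In mavrilimumab 2 a single cell carried 797 of 804 S100a8 UMIs and 508 of 509 S100a9 UMIs, together 27.7% of its 4707 UMIs, with 1 UMI of the neutrophil gate genes Retnlg and Cxcr2. In vehicle IgG 2 the 123 S100a8 UMIs lay in 7 of 44 cells, the highest of which held 51, 30, 22 and 15, beside only 3 S100a9 UMIs. Of the 6 neutrophil check markers, monocytes held 1, 4, 3 and 5 in the 4 libraries. Mmp9 was at 0 in the monocytes of all 4 libraries and Ly6g was at 0 in 3 of them. The single cell of mavrilimumab 2 described above held 2 UMIs of these markers, Csf3r not counted. The list summed to 118 to 133 CPM in the tested monocyte sums against 4338 and 5245 CPM in the tested neutrophil sums.

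Between neutrophils and monocytes, 5 of the 10 genes differed in the edgeR quasi-likelihood test across all cell types with library as a block, where 17% of 14028 genes were called (6.86% higher and 10.1% lower). S100a8 was higher in neutrophils by 5.76 ± 1.01 (log2, SE; adjusted p = 0.00114), S100a9 by 7.88 ± 1.23 (adjusted p = 0.000448) and S100a11 by 2.02 ± 0.49 (adjusted p = 0.00966). S100a4 fell by 5.38 on the log2 scale (SE 0.97, adjusted p = 0.00138) and S100a10 fell by 2.43 (SE 0.69, adjusted p = 0.0243). The calls for S100a8 and S100a9 were lost when free RNA was subtracted (5.97 and 7.68) and when cells in several gates were kept (2.52 and 2.61), with the directions unchanged. limma-voom did not call S100a8 (5.54, adjusted p = 0.0601) or S100a4 (-5.73, adjusted p = 0.0827). The S100a11 call was lost without mavrilimumab 1 (1.90) and without mavrilimumab 2 (2.35), and the S100a4 call was lost without mavrilimumab 2. Without mavrilimumab 2, which holds the monocyte barcode described above, 2 genes were called, and without mavrilimumab 1 there were 3. The 5 genes that were not called ranged from -0.79 (S100a1) to 2.11 (S100a16).

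Between monocytes and microglia, S100a8 was higher in monocytes by 6.09 ± 1.34 (log2, SE; adjusted p = 0.00327), and S100a9 by 4.04 ± 1.43 (adjusted p = 0.0479). Without mavrilimumab 2 the S100a8 difference was 3.71 and not called, and that of S100a9 was -0.73. Both calls were also lost when free RNA was subtracted (6.74 and 4.899), and that of S100a9 with DESeq2 (3.26), with DESeq2 size factors (4.00), with a higher UMI minimum (3.95) and without vehicle IgG 1 (4.04). Leaving out monocytes with 2 or more neutrophil marker UMIs, a filter chosen after the data were seen, also turned S100a9 to -0.71. From neutrophils to microglia S100a8 fell by 11.85 (log2; SE 1.59), S100a9 fell by 11.91 (SE 1.74), S100a11 fell by 6.53 (SE 0.51) and S100a6 fell by 5.68 (SE 0.52), 4 of the 10 genes where 24.6% were called.

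The neutrophil granule genes Ngp, Camp, Ltf, Lcn2, Mmp8, Mmp9 and Wfdc21, which share the secretory program of maturing neutrophils, were counted beside the pair. Of the 7, 4 were higher in neutrophils than in monocytes, where 6.86% of genes were called higher: Wfdc21 (5.61 on the log2 scale), Lcn2 (3.52), an iron-siderophore carrier, Mmp8 (2.99), a collagenase, and Mmp9, a gelatinase. The list's median log2 difference was 2.99, against -0.15 over all genes. Mmp9 had 0 UMIs in monocytes, so no fold is given for it. The other 3, Ngp, Camp and Ltf, did not pass the test in this contrast. Between monocytes and microglia, where 26.4% of genes were called and 10.4% were called higher, 6 of the 7 were higher and 0 lower. Of 67 monocytes of mavrilimumab 2, 22 held at least 2 UMIs of neutrophil markers, as did 6 of 44 in vehicle IgG 2 and 1 of 35 in mavrilimumab 1. Those markers include Mmp8 and Mmp9, so no count of granule genes is given with those cells left out. Without mavrilimumab 2, 2 of the 7 were higher in neutrophils than in monocytes, where 99 of 14329 genes were called higher, and 2 were higher in monocytes than in microglia, where 818 were. Of the treatment and state comparisons, the only ones in which any granule gene passed the count filter were monocytes (5 tested), CD4 T cells (1) and the neural split (1), and 0 were called.

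S100a4, S100a6, S100a10 and S100a11 bind annexins and the cytoskeleton and were detected in lymphoid and myeloid gates. Empty droplets held 27.1 to 203 CPM of S100a4, 97.6 to 573 of S100a6, 84.1 to 645 of S100a10 and 57.0 to 379 of S100a11, each highest in mavrilimumab 1. Of the tested T cell, NK and monocyte sums given below, 4 lay under the empty droplets of their library: S100a4 and S100a10 in NK cells and S100a10 in monocytes of mavrilimumab 1, and S100a6 in CD4 T cells of mavrilimumab 2, where the droplets held 509.9 CPM. S100a6, a partner of Cacybp, was highest in neutrophils (3727, 2575, 5595 and 3895 CPM) and reached 1761, 1159, 1021 and 2035 CPM in NK cells and 464, 1066, 938.5 and 1289 CPM in CD8 T cells. In monocytes S100a6 stood at 702, 896, 967 and 1718 CPM, and in CD4 T cells at 324, 520.1, 799.9 and 496 CPM. The vehicle IgG 1 values of NK cells and monocytes, here and below, come from only 4 and 2 cells, too few to test. Microglia had only 5.94, 113, 29.5 and 52.1 CPM. Along this order the neighbors did not differ past the threshold until the step from CD4 T cells to microglia, which was 3.75 ± 0.46 (log2, SE; adjusted p = 5.99e-06; 42.8% of genes called).

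S100a11, which binds Anxa1, followed a like order with a steeper top. Neutrophils held 5614, 3604, 7060 and 4143 CPM, above every other sum in each library. Monocytes held 641, 754, 518 and 1384 CPM, NK cells 1085, 614, 609.6 and 1109 CPM, CD4 T cells 345, 589.6, 754 and 403 CPM, and CD8 T cells 309.9, 385, 451 and 483 CPM. The step from neutrophils to monocytes was called (2.02), the 3 steps among monocytes, NK, CD4 T and CD8 T cells were not, and CD8 T cells exceeded neural cells by 4.09 ± 0.59 (adjusted p = 4.21e-05; 51.7% of genes called). Microglia held 6.05 to 48.2 CPM.

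S100a4, the partner of non-muscle myosin heavy chain Myh9, was near absent from neutrophils. Its level there was 0, 0, 0 and 40.2 CPM, the last from 12 UMIs, and the limits that a count of 0 allows in the other libraries were 47.6, 23.2 and 99.9 CPM. Its mean was highest in monocytes (580, 521, 755 and 1252 CPM), followed by CD4 T cells (193, 547, 417.5 and 239 CPM), NK cells (125, 391, 65.9 and 366 CPM) and CD8 T cells (91.9, 301, 213 and 355 CPM). In vehicle IgG 2 the CD4 T level lay above that of monocytes, the step between these gates was not called (0.91 ± 0.57, adjusted p = 0.282), and neither was a step among CD4 T, NK and CD8 T cells. CD8 T cells exceeded microglia by 3.28 ± 0.56 (adjusted p = 0.000158).

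S100a10, which joins Anxa2 in a membrane-bound tetramer and binds Ahnak, was highest on average in lymphocytes. CD4 T cells held 776, 1122, 1045 and 782 CPM, CD8 T cells 641, 649, 823 and 731 CPM, and NK cells 1316, 741, 568 and 999 CPM. The spread among CD8 T libraries was small (711 ± 85.0 CPM, SD, n = 4). Monocytes ranged from 0 to 948 CPM and neutrophils from 0 to 191 CPM, and the step from monocytes to neutrophils was called at 2.43 ± 0.69 (adjusted p = 0.0243), a call lost under 9 alternatives, among them the omission of vehicle IgG 2, mavrilimumab 1 or mavrilimumab 2. The values of 0 CPM come from sums of fewer than 20 cells. The lowest tested sums held 273 CPM in monocytes and 46.4 CPM in neutrophils. No step from CD4 T cells down to monocytes was called.

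**Figure D2:**
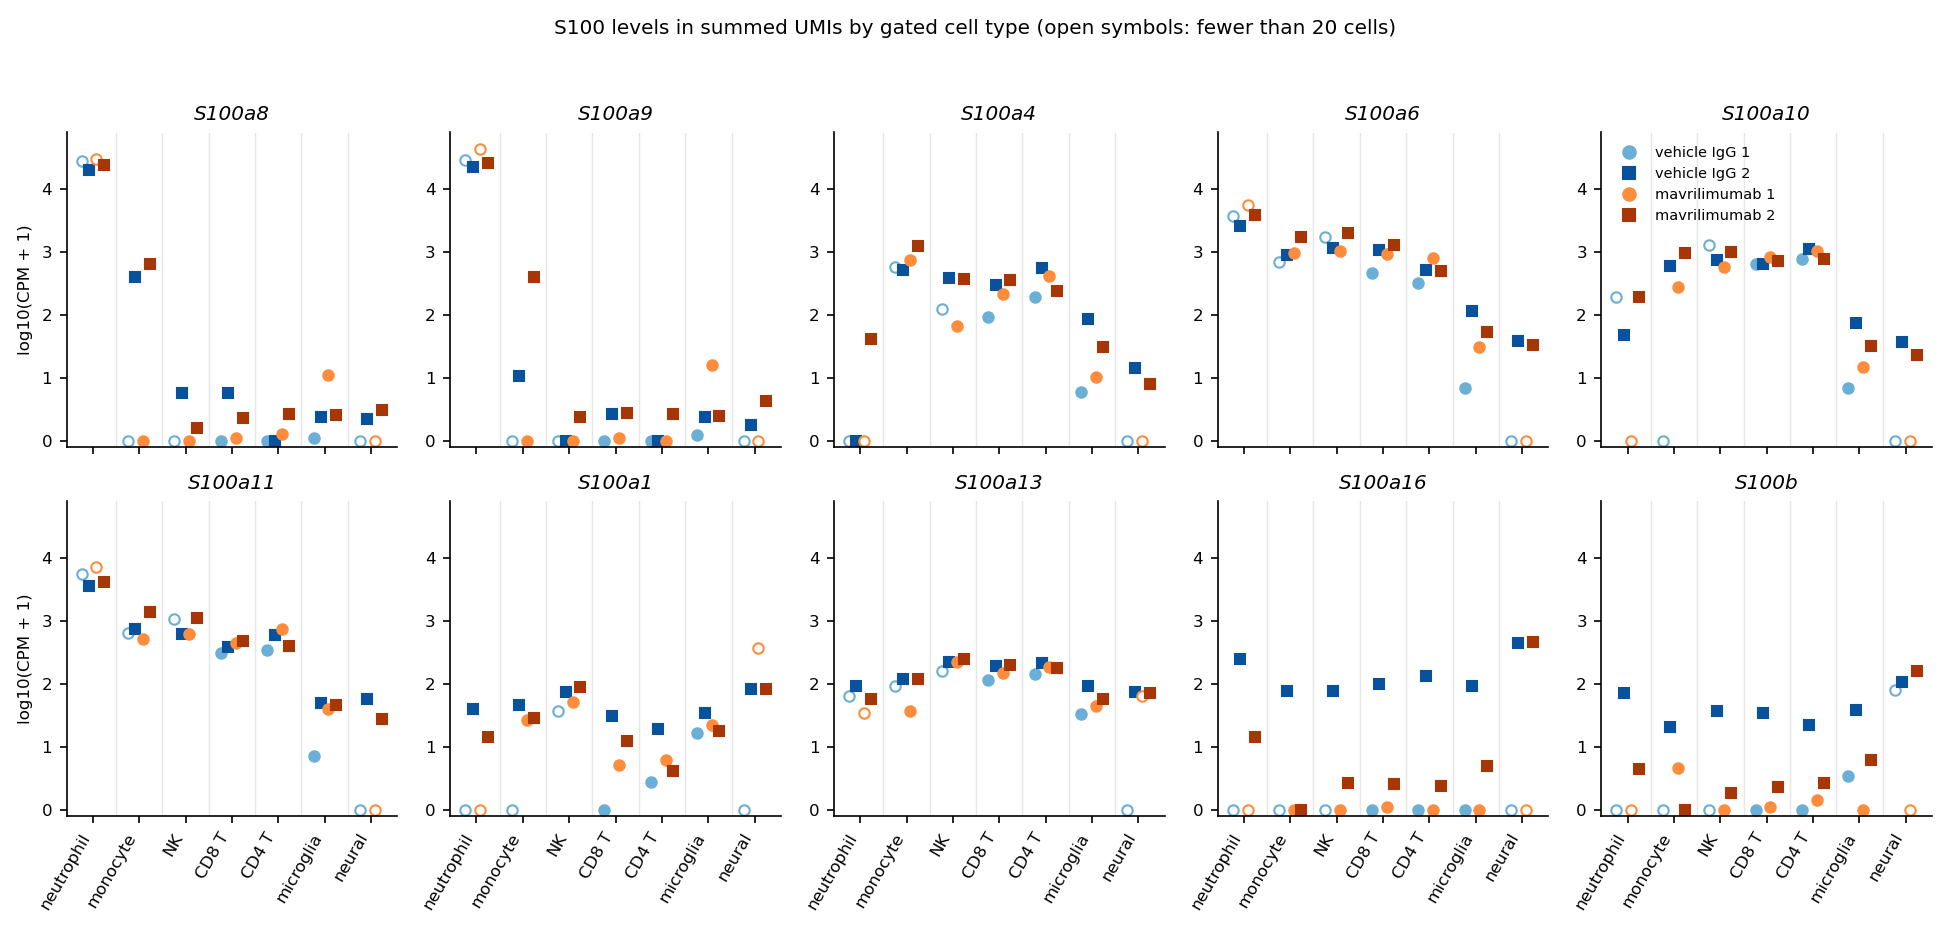
Level of each S100 gene as log10(CPM + 1) by gated cell type, with 1 symbol per library and open symbols for sums of fewer than 20 cells. S100a8 and S100a9 stand at 20160 CPM or more in neutrophils and at most 639 CPM elsewhere, S100a4 is at 0 in neutrophils of 3 libraries, and S100a16 exceeds 70 CPM outside the neural gate only in vehicle IgG 2.

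Against microglia, CD8 T cells had 5 of the 10 genes higher and 0 lower, where 46.1% of genes were called and 22.1% were called higher. The number lower was 3 without vehicle IgG 2 (S100a1, S100a16 and S100b), 4 with cells in several gates kept, and 1 (S100a1) without mavrilimumab 2, with DESeq2 or with DESeq2 size factors. Over all genes, in either direction, 5172 to 8474 were called with 1 library left out and 4894 to 7657 under the other alternatives, against 6464. The 5 genes higher in CD8 T cells were S100a10 (4.91 ± 0.54), S100a6 (4.56 ± 0.46), S100a11 (3.84 ± 0.43), S100a4 (3.28 ± 0.56) and S100a13 (1.62 ± 0.21), each as log2 difference and SE. Monocytes likewise exceeded microglia for S100a4 (4.75 ± 0.62), S100a11 (4.51 ± 0.45), S100a6 (4.44 ± 0.47) and S100a10 (4.21 ± 0.54), so that with the calprotectin pair 6 of 10 were higher and 0 lower, where 26.4% of genes were called and 10.4% were called higher. Between CD8 T and CD4 T cells 0 of the 10 were called in edgeR, with 1.65% of genes called and 1535 of 14028 at an unadjusted p under 0.05, and DESeq2 and limma-voom also called 0. S100a9, at most 1.74 CPM in both gates, differed by 1.12 ± 1.79, S100a1 by 0.95 ± 0.57 and S100a6 by 0.81 ± 0.40.

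Of the 14 binding partners and receptors examined, 10 were higher and 2 lower in monocytes than in microglia, where 26.4% of genes were called, with a median log2 difference of 1.30 against -0.34 over all genes. Ahnak (5.64 ± 0.70), the scaffold of S100a10, Anxa1 (5.32 ± 0.70) and Anxa2 (4.41 ± 0.35), partners of S100a11 and S100a10, were higher, and Tlr4, a receptor for calprotectin, was lower by 2.70 (SE 0.66). In CD8 T cells against microglia 6 were higher and 3 lower, where 46.1% of genes were called, among them Ahnak (4.36) and Anxa2 (2.94) higher, while Tlr4 fell by 5.50 and Cd36 fell by 5.36 on the log2 scale. In neutrophils against monocytes 4 were higher and 4 lower, where 17% of genes were called: Tlr4 was higher by 2.90 (SE 0.79), while Ahnak fell by 4.07 (SE 0.97), Anxa7 fell by 2.29 (SE 0.45) and Cd36, a fatty acid receptor, was also lower. Without mavrilimumab 2 the counts were 6 higher and 2 lower for monocytes against microglia, where 1800 of all genes were called, against 3708 in the main fit. For neutrophils against monocytes only vehicle IgG 2 was then left as a tested neutrophil library, so no count is given. The list median was -0.17, and the calls of the main fit for this pair are not shown to hold without mavrilimumab 2.

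S100a13, which takes part in the release of fibroblast growth factor, had UMIs in all 7 gates, at 31.6 to 245 CPM in the tested sums. Empty droplets held 22.9, 108.5, 107.4 and 99.3 CPM in the 4 libraries. The tested neutrophil and neural sums, microglia outside vehicle IgG 1 and monocytes of mavrilimumab 1 lay under the droplets of their library. In vehicle IgG 2 the droplet level rested on 40 UMIs and was 78.8 CPM in droplets of 20 to 200 UMIs. Its neutrophil and microglia sums, at 92.8 and 89.5 CPM, lay above that value. NK cells held 160.1, 222, 222 and 245 CPM, CD4 T cells 141, 212, 181 and 174 CPM, and CD8 T cells 113, 189.5, 146 and 198 CPM. The remaining cell types stood lower, at 31.6 to 89.5 CPM in microglia, 36.0 to 119.7 in monocytes, 33.3 to 92.8 in neutrophils and 69.4 and 74.1 in the tested neural sums. The step from CD8 T cells to monocytes was called (1.09 ± 0.24, adjusted p = 0.00291; 26.7% of genes called), and the other 5 steps were not.

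S100a1, best known from heart and muscle, where it acts on calcium-handling proteins, was low everywhere but set NK cells apart from T cells. In NK cells it stood at 73.0, 49.4 and 86.8 CPM in vehicle IgG 2, mavrilimumab 1 and mavrilimumab 2, whereas in CD8 T cells it was 0, 30.0, 4.05 and 11.3 CPM and in CD4 T cells 1.74, 18.1, 5.25 and 3.10 CPM. The NK sums did not overlap those of either T cell gate, and the share of all genes lying apart in this way was not counted. The value of mavrilimumab 1 rested on 6 UMIs of 20 cells (95% exact Poisson interval, which covers counting error only, 18.1 to 107.6 CPM). S100a1 was the only 1 of the 10 genes called between NK and CD8 T cells (2.47 ± 0.53, adjusted p = 0.0129). There 4.32% of genes were called and 1.75% were called higher. It was also the only 1 called between CD4 T and NK cells, where it fell by 3.42 (SE 0.62, adjusted p = 0.00219). In that contrast 7.65% of genes were called and 3.29% were called lower. S100a13, whose start overlaps that of S100a1, differed by 0.12 ± 0.23 between NK and CD8 T cells. Empty droplets held 5.04, 89.5, 6.24 and 34.5 CPM of S100a1 in the 4 libraries, in vehicle IgG 2 above its NK sum. The NK call was lost without mavrilimumab 1 (2.35), without mavrilimumab 2 (2.01) and without the library block (2.43).

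S100a16 and S100b were highest on average in the neural gate. S100a16 stood at 439 and 453 CPM in the neural cells of vehicle IgG 2 and mavrilimumab 2, and S100b, the astroglial member, at 107 and 160.4 CPM. Empty droplets of these libraries held 391 and 87.6 CPM of S100a16 and 97.6 and 99.3 CPM of S100b. The 97.6 CPM rested on 36 UMIs. In droplets of 20 to 200 UMIs S100b was at 143 and 147 CPM, the first above the neural sum of vehicle IgG 2. S100a1 was at 83.0 and 83.1 CPM in the neural sums. The first lay below the 89.5 CPM of the empty droplets of vehicle IgG 2, but above the 74.9 CPM of droplets of 20 to 200 UMIs. The other libraries held only 4 and 2 cells in this gate. Neural cells exceeded microglia by 5.38 ± 1.09 for S100a16 (log2, SE; adjusted p = 0.00141) and by 3.61 ± 0.99 for S100b (adjusted p = 0.00839), and S100a4 was lower by 2.32 (SE 0.73, adjusted p = 0.0181), 3 of 10 genes where 42.2% were called (15.3% higher and 26.9% lower). The S100a4 call was lost with free RNA subtracted (-2.53), without the library block (-2.02), without mavrilimumab 2 (-1.88) and without vehicle IgG 2 (-1.97). Neural cells also exceeded neutrophils for S100a16 (4.00 ± 1.20, adjusted p = 0.0241), where 27.8% of genes were called, but not past the threshold for S100b (3.44 ± 1.25, adjusted p = 0.0507).

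Outside the neural gate both genes stood higher in 1 library than in the others. S100a16 reached 74.4 to 247 CPM in the 6 immune sums of vehicle IgG 2 and 0 to 13.4 CPM in those of the other 3 libraries, and S100b reached 19.4 to 69.6 CPM against 0 to 5.19 CPM. The empty droplets of vehicle IgG 2 held 391 CPM of S100a16 and 97.6 CPM of S100b, above each of its immune sums. Within that library S100a16 made up 1.64% to 4.28% of the UMIs of the 6 neural markers in immune sums and 2.15% in neural cells, and S100b made up 0.416% to 1.12% and 0.522%. With empty-droplet RNA subtracted, at a share estimated from markers that a gate should lack, S100a16 went from 92.3 to 0 CPM and S100b from 37.9 to 12.4 CPM in microglia. In the other gates S100a16 moved less, from 96.6 to 91.8 CPM in CD8 T cells, 75.0 to 72.2 in NK cells, 130.0 to 107 in CD4 T cells, 74.4 to 60.4 in monocytes and 247 to 231 in neutrophils. The size of these moves follows the share subtracted. Neural markers set it in microglia (29.4%), oligodendrocyte markers in neutrophils (7.33%) and erythroid markers in the other gates (0.838% to 7.43%).

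**Figure D3:**
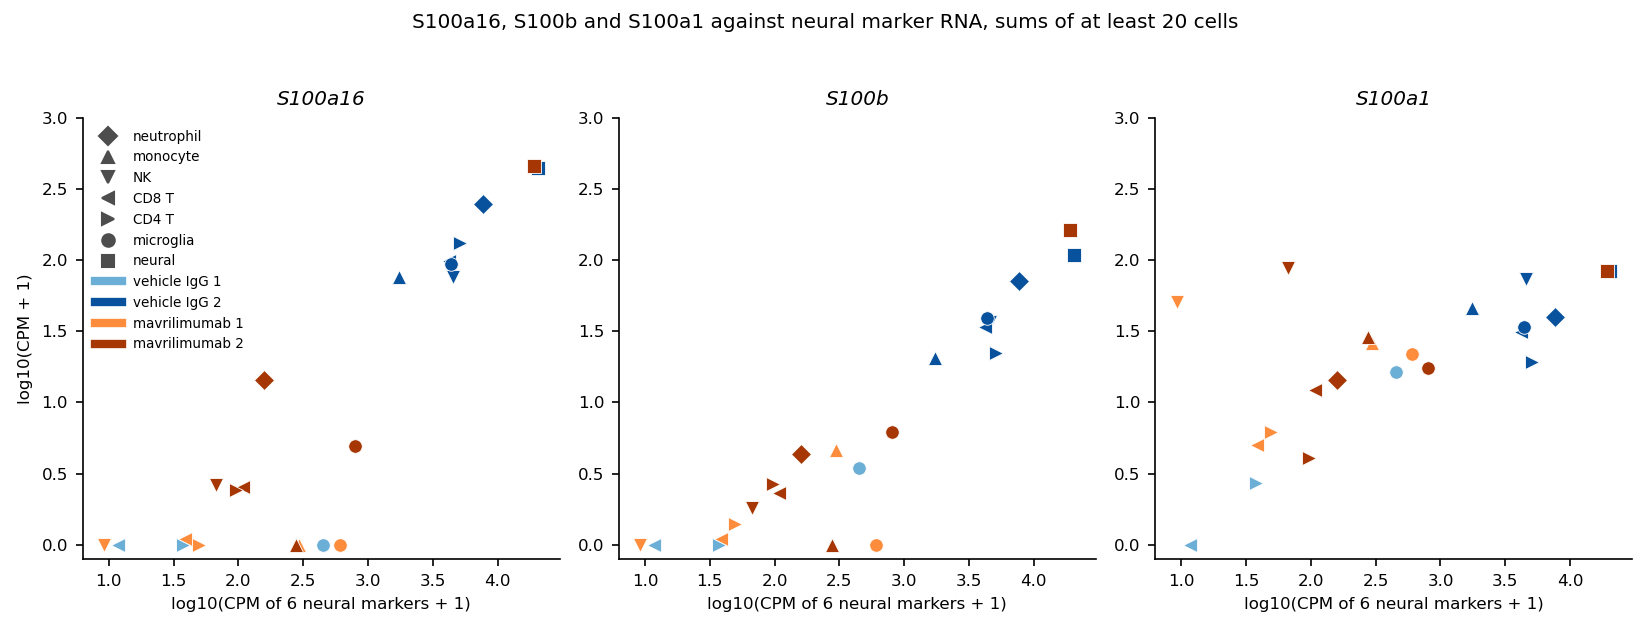
Level of S100a16, S100b and S100a1 as log10(CPM + 1) against the summed level of 6 neural markers, also as log10(CPM + 1), with 1 symbol per library (color) and cell type (shape) for sums of at least 20 cells. The immune sums of vehicle IgG 2 lie towards the neural sums for S100a16 and S100b, while the S100a1 level of NK cells in the mavrilimumab libraries is high at neural marker levels of at most 65.9 CPM.

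In mavrilimumab 2, where no tested immune sum held over 799 CPM of neural markers, the neural level of S100a16 stood far above every immune sum, at 453 against at most 13.4 CPM, and S100b at 160.4 against at most 5.19 CPM. The empty droplets of mavrilimumab 2 held 87.6 CPM of S100a16 and 99.3 CPM of S100b. The calls against microglia depended on the model. Without mavrilimumab 2 the S100b difference was 1.18 and 1 of the 10 genes was called, S100a16 (2.17), and limma-voom called neither S100a16 (2.94, adjusted p = 0.506) nor S100b (1.86, adjusted p = 0.407) but 1 other gene, S100a4, which was lower. Without the library block 0 were called. Keeping cells in several gates moved S100a16 to 3.15 and S100b to 2.20, neither of them called, and 4 other S100 genes were then lower in neural cells.

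Within the CD8 T gate the genes were compared between cells whose TCR pair was shared by at least 2 cells and those with a pair seen in 1 cell. This could be done in the 2 libraries labelled mavrilimumab. S100a6 stood at 1161 and 1843 CPM in expanded clones and 712 and 1030.4 CPM in single cells, S100a4 at 221 and 564 against 148 and 247 CPM, and S100a11 at 526 and 599 against 338 and 425 CPM. In each library the expanded cells were higher. The log2 differences were 0.74 ± 0.08 for S100a6 (adjusted p = 0.121), 0.87 ± 0.16 for S100a4 (adjusted p = 0.192) and 0.53 ± 0.09 for S100a11 (adjusted p = 0.161).

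S100a10, S100a13 and S100a1 differed by 0.26, 0.20 and 0.16. None of the 6 genes tested was called between clone sizes, and edgeR called 0% of 11207 genes although 1375 had an unadjusted p under 0.05. S100a6 was called under 6 of 11 alternatives: DESeq2, no count filter, and edgeR with clones of more than 3 cells (0.79, adjusted p = 0.0278), without deep cells (adjusted p = 0.0373), with a higher UMI minimum (adjusted p = 0.0461) or with several gates kept (adjusted p = 0.0459). S100a4 was called with DESeq2 and with no filter, and S100a11 with no filter. In vehicle IgG 1, with 5 expanded cells against 47, S100a6 stood at 2097 and 379 CPM and S100a4 at 505.6 and 53.9 CPM, untested.

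**Figure D4:**
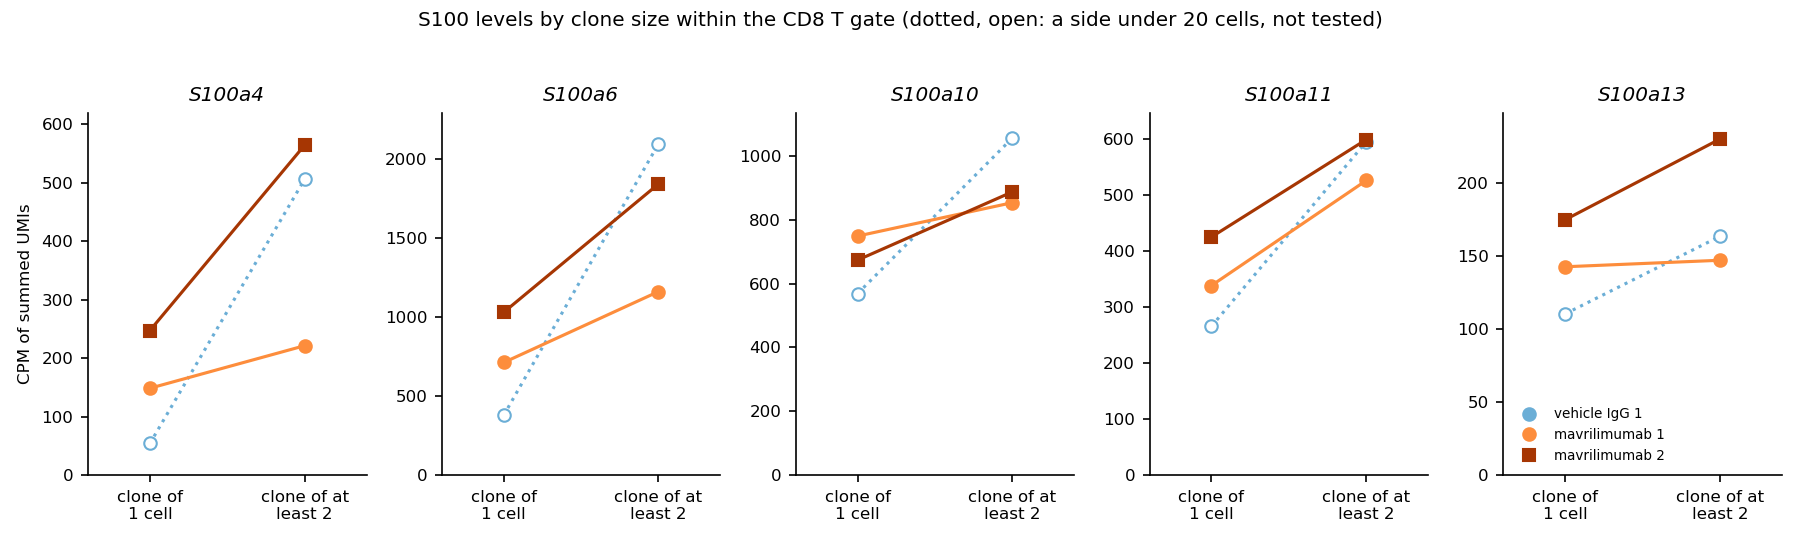
CPM of 5 S100 genes within the CD8 T gate, joined per library, for cells of clones of 1 cell and of at least 2 cells. Dotted lines with open symbols mark the library with a side of fewer than 20 cells, and S100a4 and S100a6 lie higher in expanded clones of all 3 libraries whose TCR file was used.

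In the CD4 T gate, cells with a UMI of Foxp3, the regulatory T cell factor, were set against cells without 1 in the 2 libraries labelled mavrilimumab. S100a4 stood at 505 and 949 CPM in Foxp3-positive cells and at 386 and 129.7 CPM in the others, S100a6 at 872 and 1655 against 774 and 319 CPM, and S100a10 at 1261 and 1894 against 967 and 611 CPM. All were higher in Foxp3-positive cells of both libraries, with the wider gap in mavrilimumab 2, and the untested vehicle libraries, with 12 and 7 Foxp3-positive cells, lay the same way round. None of the 6 genes tested was called, where 2.44% of genes were: S100a4 differed by 1.52 ± 0.48 (adjusted p = 0.184), S100a6 by 1.19 ± 0.43 (adjusted p = 0.249) and S100a10 by 0.94 ± 0.28 (adjusted p = 0.165). The other 3 differed by 1.83 (S100a1), 0.73 (S100a11) and 0.19 (S100a13). limma-voom called 2 of the 6, S100a4 and S100a10. The CD4 T sum of mavrilimumab 1 also held 4545 CPM of 6 B cell markers, against at most 292 CPM in the CD4 T sums of the other libraries, whose part in these values was not tested.

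Microglia were divided by Spp1, Lpl and Itgax, genes of the activated phagocytic state, in all 4 libraries. S100a10 stood at 1.22, 63.8, 3.16 and 23.8 CPM in cells with at least 2 such UMIs and at 15.9, 84.0, 35.0 and 56.5 CPM in cells with 0, lower in each library. S100a13 stood at 37.3, 127.5, 44.2 and 62.0 CPM against 22.8, 71.4, 41.6 and 50.6 CPM, higher in each library. Each S100a10 value lay below the empty droplets of its library (123.6, 84.1, 645 and 309 CPM). In vehicle IgG 2 that level rested on 31 UMIs. With droplets of 20 to 200 UMIs it was 65.4 CPM, under the 84.0 CPM of the cells with 0. For S100a13 the droplets held 22.9, 108.5, 107.4 and 99.3 CPM, and only vehicle cells with such UMIs lay above them. Those levels do not give the share of free RNA in a sum. S100a10 fell by 1.44 (log2; SE 0.34, adjusted p = 0.0112) and S100a13 rose by 0.60 (SE 0.16, adjusted p = 0.0204), 2 of 8 genes tested where 14.5% of genes were called (6.58% higher and 7.92% lower). The other 6 ranged from -0.86 (S100a4) to 0.90 (S100a16). The cells with such UMIs were also deeper, with median UMIs of 21030, 5478, 9473.5 and 14422 against 7212.5, 2595, 3665.5 and 6676, and depth and state cannot be told apart in these sums. The S100a10 call was lost without vehicle IgG 1 (-1.03), mavrilimumab 1 (-1.31) or mavrilimumab 2 (-1.75), and the S100a13 call without vehicle IgG 1 (0.53) or vehicle IgG 2 (0.52). Both were also lost with cells in several gates kept (-1.98 and 0.33) and without the library block (-1.21 and 0.60), and that of S100a13 with DESeq2 (0.60, adjusted p = 0.0569).

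Within the neural gate, cells with at least 2 UMIs of Mki67 and Top2a, genes of dividing cells, held less S100b and S100a1. S100b stood at 50.5 and 39.1 CPM in dividing cells of vehicle IgG 2 and mavrilimumab 2 and at 122.5 and 179 CPM in cells without these UMIs. S100a1 stood at 44.6 and 27.4 CPM against 92.6 and 89.0 CPM. S100b fell by 1.47 (log2; SE 0.25, adjusted p = 2.0e-07) and S100a1 by 1.14 (SE 0.27, adjusted p = 0.000732), 2 of the 10 genes, where 7.12% of genes were called and 1.58% were called lower. S100a16 stood at 334 and 446 CPM against 469 and 453.5 CPM and was not called (-0.25 ± 0.25), and the other 7 ranged from -0.62 (S100a6) to 0.32 (S100a9). The dividing cells were also deeper, with median UMIs of 5886.5 and 4227.5 against 3703.5 and 3244, and depth and state cannot be told apart here either. The mavrilimumab 2 values of the dividing side rest on 10 UMIs of S100b and 7 of S100a1 in 42 cells, and the S100a1 call was lost with DESeq2 and without the library block.

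The labelled treatments were compared within each gate to ask whether blockade of the GM-CSF receptor, which sustains myeloid cells, moved S100 expression. In T cells and microglia none of the S100 genes tested passed the threshold in the main fit, which has no replicate block. With that block S100a16 and S100b passed it in microglia, as given below. In CD8 T cells S100a11 stood at 309.9 and 385 CPM in vehicle IgG and 451 and 483 CPM in mavrilimumab, and S100a10 at 641 and 649 against 823 and 731 CPM. For these 2 of 10 genes both mavrilimumab libraries lay above both vehicle libraries, as they did for 14% of the 12268 genes tested. The differences were 0.48 ± 0.24 for S100a11 (log2, SE; adjusted p = 0.911), 0.32 ± 0.21 for S100a10 (adjusted p = 0.922), 0.59 ± 0.49 for S100a6 (adjusted p = 0.926) and 0.57 ± 0.65 for S100a4 (adjusted p = 0.949). With 1 library left out S100a6 ranged from 0.16 (without vehicle IgG 1) to 1.36 (without vehicle IgG 2) and S100a4 from 0.021 to 1.74 in the same cases, not called. S100a13 differed by 0.23, S100a9 by -0.21, S100a1 by -1.03 and S100a8 by -1.88, none of them called. The CD8 T sum of vehicle IgG 1 also held 3113 CPM of microglia markers, whose part in these values was not tested.

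In the main edgeR fit no gene of any kind was called in CD8 T cells (0% of 12268, 549 at an unadjusted p under 0.05), in CD4 T cells (0% of 10557, 300 at that p) or in microglia (0% of 12414, 363 at that p). DESeq2 called 27, 0 and 12 genes in the 3 gates, limma-voom 0 in each, and neither called an S100 gene. The S100 genes tested were 10, 6 and 8. In CD4 T cells S100a1 differed by -0.87 ± 1.19 and S100a6 by 0.67 ± 0.40 (adjusted p = 1 for both), the latter from 324 and 520.1 CPM to 799.9 and 496 CPM, and the other 4 ranged from -0.12 (S100a4) to 0.35 (S100a11). The S100a1 difference was 0.54 with limma-voom and 1.36 without vehicle IgG 2. Of the binding partners, 0 of 12, 12 and 13 tested were called in the 3 gates.

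Microglia showed how far 1 vehicle library decides such a value. S100a6 stood at 5.94 and 113 CPM in vehicle IgG and 29.5 and 52.1 CPM in mavrilimumab, and S100a11 at 6.05 and 48.2 against 38.0 and 44.3 CPM, so the vehicle values enclosed the mavrilimumab ones for both genes. Over all 4 libraries S100a6 differed by -0.39 ± 1.24 and S100a11 by 0.77 ± 0.93. Without vehicle IgG 1, where 1409 of 11720 genes were called and 1032 were lower, S100a6, S100a4, S100a10, S100a16 and S100b were called lower in mavrilimumab, S100a6 with a log2 difference of -1.27, and S100a11 stood at -0.09. Without vehicle IgG 2, where 169 of 13664 genes were called and 99 were higher, S100a6 and S100a11 were called higher, by 2.90 and 2.83, and S100a4 (2.18) and S100a10 (2.11), at -1.01 and -0.66 over all 4 libraries, also turned. With limma-voom S100a6 stood at 1.50, S100a4 at 1.20 and S100a10 at 1.19. Vehicle IgG 1, the lowest library for both genes, was also the lowest for the T cell markers (5.82, 74.4, 84.6 and 43.2 CPM in the 4 libraries) and the NK markers (1.63, 109, 45.0 and 29.8 CPM) in its microglia, and their part in the result was not tested. The neural members S100a16 and S100b were high in the immune sums of vehicle IgG 2 alone. With a replicate block both were called in microglia (-4.47 and -2.96), where 216 genes were, though shared replicate numbers do not establish pairing. Without that block none was called over all 4 libraries. They then differed by -3.97 ± 2.53 and -2.53 ± 1.61 in microglia and by -5.69 ± 2.08 and -4.44 ± 1.92 in CD8 T cells. Without vehicle IgG 2 these 4 differences were 6.997, 0.52, 6.47 and 6.26, not called, with 0 UMIs of S100a16 in both gates of vehicle IgG 1 and 0 of S100b in its CD8 T cells, and limma-voom put microglial S100a16 at 4.07. S100a1 (-0.28) and S100a13 (-0.18) were not called in microglia either.

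In monocytes 0 of 9 genes were called, where 1.06% of 6398 genes were, from 1 vehicle library against 2. S100a4 stood at 521 CPM against 755 and 1252 CPM (1.03 ± 0.43, adjusted p = 0.314) and S100a6 at 896 against 967 and 1718 CPM (0.67 ± 0.42, adjusted p = 0.529). Both lay higher in the 2 mavrilimumab libraries than in vehicle IgG 2. The share of all genes lying this way was not counted for monocytes, and no difference is read from it. S100a9 differed by 4.52 ± 1.89 (adjusted p = 0.318), with 508 of the 509 UMIs of mavrilimumab 2 in 1 barcode. S100a16 had 23 UMIs in vehicle IgG 2 and 0 in both mavrilimumab sums, which allow up to 10.8 and 2.38 CPM. The other 5 ranged from -0.67 (S100a1) to 0.42 (S100a11).

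In NK cells 2 of 8 genes were called, both lower in mavrilimumab, where 10.6% of 11419 genes were called and 10% were called lower, again from 1 vehicle library against 2. S100a16 stood at 75.0 CPM against 0 and 1.63 CPM and fell by 5.48 (log2; SE 0.67, adjusted p = 2.5e-14), and S100b stood at 35.5 against 0 and 0.814 CPM and fell by 5.35 (SE 1.00, adjusted p = 2.29e-06). Both are the neural members, and the 6 neural markers moved with them, at 4561 CPM in the NK cells of vehicle IgG 2 and at most 65.9 CPM in the others. How much of the change they account for was not tested, and with 1 vehicle library the treatment and that library cannot be told apart. The other 6 genes ranged from -0.63 (S100a4) to 0.52 (S100a11) and were not called. DESeq2 called S100a16 and did not call S100b (-5.16).

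**Figure D5:**
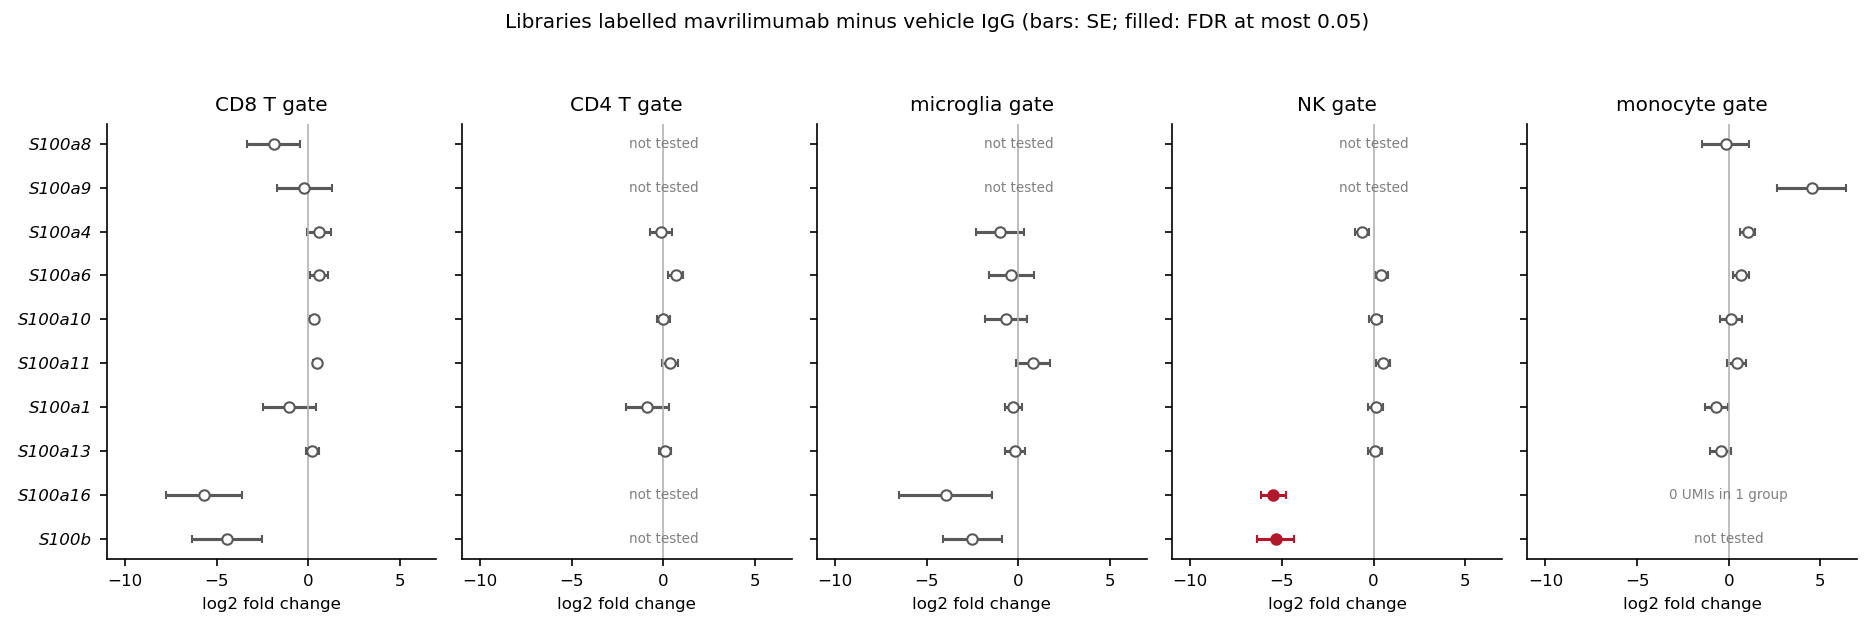
Log2 fold change of each S100 gene, libraries labelled mavrilimumab minus vehicle IgG, by gated cell type, with bars of 1 SE and filled symbols for adjusted p of at most 0.05 in edgeR. Only S100a16 and S100b in NK cells are filled, and the 6 genes measured in each of the 5 gates show differences between -1.03 and 1.03.

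Neutrophils and neural cells could not be tested between treatments, since only 1 library per group had 20 or more such cells. In neutrophils S100a8 stood at 20160 CPM in vehicle IgG 2 and 24247 in mavrilimumab 2, S100a9 at 22202 and 25591, S100a11 at 3604 and 4143 and S100a6 at 2575 and 3895 CPM. These differences have no replicate check. The 9 neutrophils of vehicle IgG 1 held 27720 CPM of S100a8, 28513 of S100a9 and 5614 of S100a11, above mavrilimumab 2, so over all 4 libraries the groups overlapped for these 3 genes. For S100a6 they did not, with 3727 CPM in vehicle IgG 1 and 5595 in the 13 neutrophils of mavrilimumab 1. The share of all genes lying apart in this way was not counted for neutrophils, and no difference is read from it. In vehicle IgG 2 the neutrophil sum held 7687 CPM of neural markers against 158 CPM in mavrilimumab 2.

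The genes most alike in level were looked up over the 22 tested sums among 12049 genes, as Pearson's r of log2(CPM + 1). The points share libraries, depth and cell type, so the values describe these sums. S100a8 was closest to S100a9 (0.960) and Dhrs9 (0.954), and S100a9 to Dhrs9 (0.980) and Wfdc21 (0.965), the granule-gene neighbor described above. S100a6 and S100a11 were closest to each other (0.970), S100a6 next to Iqgap1 (0.960), a cytoskeletal scaffold, and Anxa2 (0.953), and S100a11 next to Plp2 (0.949). S100a10 was closest to Spn (0.964), the leukocyte sialoglycoprotein CD43, with Kcnab2 (0.958) and the integrin chain Itgb7 (0.957). S100a16 was closest to Mia (0.995) and Atp1b2 (0.995), a glial sodium pump subunit, and S100b to Olig1 (0.982), an oligodendrocyte-lineage factor. S100a4, S100a1 and S100a13 had looser neighbors, Nop53 (0.889), Sulf2 (0.901) and Rundc3b (0.910).

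Of the other 8 symbols beginning with S100, 7 were rare. S100a3, S100a5, S100a7a, S100a14, S100g and S100z had between 0 and 84 UMIs in the gated cells of any library, and S100a2 had 229 in vehicle IgG 2 and at most 7 elsewhere. S100pbp, which encodes an S100P-binding protein and no S100 protein, had 251 to 1775 UMIs and was called in none of the comparisons in which it was tested.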

How the data were processed

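Single-cell RNA was measured in 4 droplet libraries, 2 per labelled treatment, and T cell receptors in further libraries, 3 of which were used (that of vehicle IgG 2 was not analysed here). The deposited matrices hold UMI counts per gene and barcode, unfiltered, made by the authors with Cell Ranger. The labels name versions 7 and 7.1.0, Scanpy 1.8.2 and the mm10 build, whereas the matrix headers name a later Cell Ranger release. The annotation is not given in the sources used here. The deposited receptor files list assembled contigs, and each was joined to the expression library that holds most of its barcodes, without use of its treatment label.

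A barcode counted as a cell with at least 1000 UMIs (500 for neutrophils) in 200 to 6000 genes, if mitochondrial UMIs made up no more than 10%. The 7 gates used UMIs of Cd3e, Cd8a and Cd8b1 (CD8 T), Cd3e and Cd4 (CD4 T), Ncr1 and Klrb1c (NK), P2ry12 and Tmem119 (microglia), Ccr2, Ly6c2 and Lyz2 (monocyte), Retnlg and Cxcr2 (neutrophil) and Nnat and Mdk without Ptprc (neural). No doublet caller was run, and cells in several gates were left out. UMIs were summed per library and cell type, sums of at least 20 cells were tested with edgeR 4.0.16 (quasi-likelihood test, TMM, filterByExpr, R 4.3.3), and p-values were Benjamini-Hochberg adjusted over all genes tested, with calls at 0.05. Contrasts of cell types and states had the library as a block, and treatment had none. Standard errors are the log2 difference over the square root of F. limma-voom (limma 3.58.1), DESeq2 1.42.0, other filters, subtraction of empty-droplet RNA and omission of each library were alternatives. A pair of these, empty droplets of vehicle IgG 2 taken from 100 to 499 UMIs and monocytes with neutrophil markers left out, were chosen after seeing the data. Scripts were tested on simulated data. A division of CD8 T cells by marker genes is not reported here.

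The 10 genes, and the lists of binding partners, granule genes and other S100 symbols, were chosen with earlier results of these data known. The rule names all 10 in every comparison, those with small differences by a range, with up to 4 genes of each list by size of change among those called and, per S100 gene, the 3 most alike genes with at least 20 CPM. At least 20 cells were held by 4 libraries in the CD8 T, CD4 T and microglia gates, by 3 in the NK and monocyte gates and by 2 in the neutrophil and neural gates.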

Additional observations from a re-analysis of the deposited data

How the results depend on the processing

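The number of S100 genes called differed from that in the report by over 1.5 times in these cases, beside the ranges with 1 library left out. In treatment it was 1 in CD4 T cells with no count filter, 2 in microglia with a replicate block and 0 to 5 with 1 library left out, 1 in NK cells with DESeq2, and in monocytes 1 with cells of several gates kept, 1 without neutrophil-marked cells and 2 with no filter. For the Foxp3 split it was 2 with several gates kept, 2 with limma-voom and 4 with no filter. For the microglia split it was 0 with several gates kept, 1 with DESeq2, 0 without the block, 5 with no filter and 0 to 2 with 1 library left out. For dividing neural cells it was 1 with DESeq2 and 1 without the block. For clones it was 1 with several gates kept, 1 for clones of more than 3 cells, 1 without deep cells, 2 with DESeq2, 1 with a higher UMI minimum and 3 with no filter.

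Between cell types it was 2 for neutrophils over monocytes with either subtraction of empty-droplet RNA, 2 with limma-voom and 2 to 5 with 1 library left out. For monocytes over microglia it ranged from 4 to 7. It was 9 for CD8 T cells over microglia with several gates kept (4 lower) and 5 to 8 with 1 library left out (up to 3 lower). For NK over CD8 T cells it was 0 without the block and 0 to 1 with 1 library left out, and for neural cells over microglia 1 with limma-voom, 0 without the block and 1 to 4 with 1 library left out. Of 26 called differences of S100 genes in these comparisons 1 turned under an alternative, S100a9 in monocytes over microglia without neutrophil-marked cells (-0.71) and without mavrilimumab 2 (-0.73). Of 105 that were not called 46 turned under at least 1. In microglia by treatment S100a6 turned with several gates kept (1.49), limma-voom (1.50) and the replicate block (0.39), S100a4 and S100a10 with several gates kept (1.03 and 1.25) and limma-voom (1.20 and 1.19), S100a16 with limma-voom (4.07) and S100b with RNA of fuller droplets subtracted (0.085). In CD4 T cells S100a1 turned with limma-voom (0.54). With 1 library left out, the range was -0.73 to 6.90 for S100a9 in monocytes over microglia and, by treatment, -1.98 to 1.36 for S100a1 in CD4 T cells, -8.68 to 6.47 for S100a16 and -7.13 to 6.26 for S100b in CD8 T cells, and in microglia -1.27 to 2.90 for S100a6, -0.091 to 2.83 for S100a11, -2.12 to 2.18 for S100a4, -1.47 to 2.11 for S100a10, -10.36 to 6.997 for S100a16 and -9.17 to 0.52 for S100b. The causes were not tested.

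The mean neutrophil level of S100a8 was 45111 CPM with several gates kept, 32490.0 without deep cells and 27726 as a mean of single cells, and that of S100a9 was 47641, 34919 and 30067 CPM. S100a6 there was 4675 CPM without deep cells, and S100a11 was 5451 without deep cells and 5098 as a mean of single cells. Neural S100a1 was 78.8 CPM with several gates kept, 82.9 with a higher UMI minimum, 84.0 without deep cells, 83.2 with RNA of fuller droplets subtracted and 83.9 as a mean of single cells. Neural S100a16 was 498.6 CPM without deep cells, 457 with RNA of fuller droplets subtracted and 461 as a mean of single cells.

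Replicate numbers are shared by the groups in the labels, but only 2 pairs exist. Same-numbered libraries had deviations correlated at 0.46 in CD8 T cells, 0.186 in CD4 T cells and 0.429 in microglia, which does not establish pairing. With the replicate block 216 genes were called in microglia, among them S100a16 (-4.47) and S100b (-2.96), and 0 in CD8 T and CD4 T cells. No block could be fitted for NK cells and monocytes, which had 3 libraries. Over all genes the numbers called were 43 to 808 against 231 for CD8 T over CD4 T cells, 77 to 1159 against 606 for NK over CD8 T cells, 250 to 3082 against 2380 for neutrophils over monocytes, 1800 to 4168 against 3708 for monocytes over microglia, 2601 to 7187 against 5923 for neural cells over microglia, 1 to 768 against 260 for the Foxp3 split, 334 to 1196 against 1028 for dividing neural cells, 0 to 466 against 0 for clones, 3 to 2018 against 1671 for the microglia split, and by treatment 233 to 2626 against 1205 in NK cells, 1 to 497 against 68 in monocytes, 0 to 27 against 0 in CD8 T cells, 0 to 549 against 0 in CD4 T cells and 0 to 1409 against 0 in microglia.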
